A study of Mus musculus with 4 samples.

Results

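The CpGs described here are the autosomal CpGs that were read on both DNA strands in every library. DNA methylation had been measured by whole-genome bisulfite sequencing of microglia, the resident macrophages of the brain, isolated from mouse hippocampus in postpartum week 3. There were 2 libraries labelled control and 2 labelled FGR, read here as the growth restriction before birth that the series title names. All 4 came from mice of the genotype Tmem119-tdTomato+/-, with tdTomato expressed under Tmem119, a gene that marks microglia, so the control group carries this allele too. The labels used here give no method by which growth was restricted, no sex and no statement that the libraries of a group came from separate animals. p-values of comparisons between groups therefore rest on the spread between these libraries, which may be technical. Those of single CpGs between groups rest also on a spread estimated over many CpGs together. Those of the exact test of strands, given below, rest on counting error only.

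A CpG was kept when its cytosine on strand F, at base p, and its cytosine on strand R, at base p + 1, were listed in all 4 tables on chromosomes 1 to 19. This kept 19090 of the 15959399 autosomal CpGs listed anywhere, and of the 1430301 listed on any strand in all 4 libraries. A table lists a cytosine from 5 reads upwards. Both strands of a CpG were listed at 1329317 CpGs in Control 1, 1547741 in Control 2, 874571 in FGR 1 and 2743689 in FGR 2. The 4 tables sum to 62202250, 66971740, 49563150 and 91762720 reads over cytosines in that order. FGR 2 was thus the deepest library and FGR 1 the shallowest, by reads as by CpGs with both strands.

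A CpG is a palindrome: the cytosine of one strand lies opposite the guanine of the other, so each CpG offers a pair of cytosines that can carry a methyl group. After replication the new strand starts without methyl groups. Uhrf1 binds such hemimethylated CpGs and recruits Dnmt1, the maintenance methyltransferase, which copies the mark, so that in most cells both strands end up alike. Bisulfite turns unmodified cytosine into uracil and leaves methylcytosine and hydroxymethylcytosine, which it does not separate. Reads from the F and the R strand come from different molecules. A difference between the strand levels is therefore a difference between populations of strands, and hemimethylation of a single molecule is not seen.

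At 12915 of the CpGs no strand exceeded the coverage that only 1 in 1000 cytosines of its library exceeded, which was 19, 18, 21 and 18 reads. These are called CpGs at ordinary depth below, and their median coverage was 6 to 7 reads per strand. The other 6175 CpGs exceeded it in at least 1 library and strand, with up to 58187 reads on 1 cytosine, and are called high-coverage CpGs. They held most of the reads: of 4378660 reads at the 19090 CpGs in Control 1, 4182153 lay at high-coverage CpGs. The same split gave 4209191 of 4409715 reads in Control 2, 3525723 of 3709594 in FGR 1 and 4038466 of 4252065 in FGR 2.

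The CpGs were unevenly spread over the genome. Per 1000 CpGs listed in all 4 libraries, chromosome 17 held 29.6 and chromosome 4 held 29.6, against 7.05 on chromosome 2. With gaps of up to 1000 bp allowed, they formed 9107 clusters, of which 7258 were a single CpG. A further 97 clusters of at least 20 CpGs held 5366 CpGs, or 28.1% of the total. The largest, with 586 CpGs at chr17:39843001-39848737 (mm10), spans Rn18s-rs5, a sequence related to the 18S ribosomal RNA gene, and AY036118. Next came 241 CpGs at chr9:3019839-3038257, where the table has no gene, and 223 CpGs at chr1:88223805-88250962 in Mroh2a. The cluster beside it, chr1:88252171-88270239, held 216 CpGs across Mroh2a and Hjurp, which encodes the chaperone that loads the centromeric histone CENP-A. Of all 19090 CpGs, 45.5% lay in a protein-coding or lncRNA gene, against 51.3% of the CpGs listed in all 4 libraries, and 51.3% lay more than 1500 bp from any.

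Promoters were thinly covered. Windows from 250 bases before to 50 bases after the starts of RefSeq genes (GRCm38.p6, the assembly behind mm10) held 80 of the CpGs, in 35 of 31396 autosomal windows, of 34 genes. In these windows all 82 pairings of a CpG with a window fell on the letters CG of the RefSeq sequence. The 250 bases before the start are shown for a CpG-rich promoter with almost no methylation on either strand and for a pair of partly to highly methylated ones, so that promoters over the range of levels can be seen with their CpGs. Capitals mark the CpGs that were read on both strands in every library. The windows printed are chr1:88277580-88277829 on the minus strand, chr13:12925512-12925761 on the plus strand and chr14:98904880-98905129 on the plus strand.
Hjurp: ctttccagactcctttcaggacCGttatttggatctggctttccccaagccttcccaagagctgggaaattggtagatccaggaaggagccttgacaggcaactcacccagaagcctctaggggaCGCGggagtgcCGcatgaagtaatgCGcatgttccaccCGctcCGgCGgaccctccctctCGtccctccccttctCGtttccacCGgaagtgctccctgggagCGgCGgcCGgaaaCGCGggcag
Gm40904: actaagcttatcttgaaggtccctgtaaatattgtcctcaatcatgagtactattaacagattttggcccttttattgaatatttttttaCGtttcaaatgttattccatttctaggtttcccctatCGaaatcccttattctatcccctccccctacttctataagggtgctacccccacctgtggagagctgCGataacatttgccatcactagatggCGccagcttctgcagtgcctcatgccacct
Gm41228: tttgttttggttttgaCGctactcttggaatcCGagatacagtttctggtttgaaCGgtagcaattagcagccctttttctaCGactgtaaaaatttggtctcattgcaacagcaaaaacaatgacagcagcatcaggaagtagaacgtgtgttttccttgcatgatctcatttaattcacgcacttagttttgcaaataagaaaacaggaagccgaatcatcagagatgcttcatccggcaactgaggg

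At the Hjurp promoter 20 CpGs were read on both strands, 16 of them in the bases shown. Their mean level was 0.995% on F and 0.556% on R in Control 1, 0.903% and 1.40% in Control 2, 0.576% and 1.78% in FGR 1, and 2.01% and 1.57% in FGR 2. Both strands were thus near 0 in all 4 libraries, and the groups overlapped. At the 4 CpGs of Gm40904 the means were 63.3% on F and 67.6% on R in Control 1, 59.5% and 60% in Control 2, 51.1% and 50% in FGR 1, and 48.1% and 60.5% in FGR 2. At those of Gm41228 they were 80% and 84.5% in Control 1, 96.4% and 87.1% in Control 2, 90.8% and 55% in FGR 1, and 85.5% and 95% in FGR 2. The strands of Gm41228 were farthest apart in FGR 1, where 42 reads covered the 4 CpGs. None of the CpGs in promoter windows passed the test of a strand difference given below.

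Averaged over the 19090 CpGs, the strands had nearly the same level. The mean level on F was 69.9%, 70.3%, 69.4% and 69.6% in Control 1, Control 2, FGR 1 and FGR 2, and that on R was 69.2%, 69.8%, 68.8% and 69%. F exceeded R by 0.621, 0.580, 0.638 and 0.554 percentage points in the same order. At ordinary depth the difference was 0.207, -0.0878, 0.662 and 0.0934 points, with both signs among the libraries and a mean of 0.219 ± 0.319 (SD, n = 4). With the reads of each strand summed over the CpGs, the difference was larger: F minus R was 3.64, 3.26, 3.08 and 3.40 points. The mean was 3.35 ± 0.234 (SD, n = 4). A CpG then counts on each strand by its reads there. This value therefore also depends on how reads are shared between the strands, and is not a mean of differences within CpGs. It was positive in all 4 libraries, and the two-sided exact sign-flip permutation test gave p = 0.13, the smallest p that 4 libraries allow. Reads were also unevenly shared by the strands there: F held 59.3% to 59.5% of the reads at all CpGs and 49.8% to 50% at ordinary depth. Without the clusters around Rn18s-rs5 and on chromosome 3 described below, the difference from summed reads was 0.608 points.

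Both strands read at least 80% at 37.4%, 38%, 37.8% and 36.8% of the CpGs, and both read at most 20% at 3.51%, 3.18%, 4.31% and 3.94%. A strand difference of at least 50 points was seen at 529, 534, 593 and 443 CpGs, or 2.77%, 2.80%, 3.11% and 2.32%. The root mean square difference between the strands of a CpG was 20.1, 20.05, 20.7 and 19.3 points, counting noise included, at a median of 8 or 9 reads per strand. The binomial sampling variance of both strands was therefore subtracted from the mean square difference, and its root is given as the strand difference beyond counting noise. Over all CpGs it was 7.67, 8.17, 7.73 and 7.29 points in Control 1, Control 2, FGR 1 and FGR 2. At ordinary depth it was 6.45, 6.39, 7.57 and 5.31 points, and at high-coverage CpGs 9.73, 11.0, 8.06 and 10.3 points.

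The same measure between libraries puts these values in scale. At high-coverage CpGs the same strand of a pair of libraries from 1 group differed by 3.23 to 4.58 points, with a median of 3.72, whereas the F and R strands of 1 library differed by 8.06 to 11.0 points, with a median of 9.99. The ranges did not overlap. Opposite strands of different libraries of a group differed by 8.64 to 11.3 points, about as much as those within a library. At ordinary depth the separation was smaller: 4.45 to 5.39 points for the same strand of a pair of libraries and 5.31 to 7.57 points for the strands of 1 library, so the ranges overlapped. Same-strand differences between control and FGR libraries, 4.36 to 6.60 points at ordinary depth and 3.32 to 7.03 at high-coverage CpGs, overlapped those within groups.

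**Figure D1:**
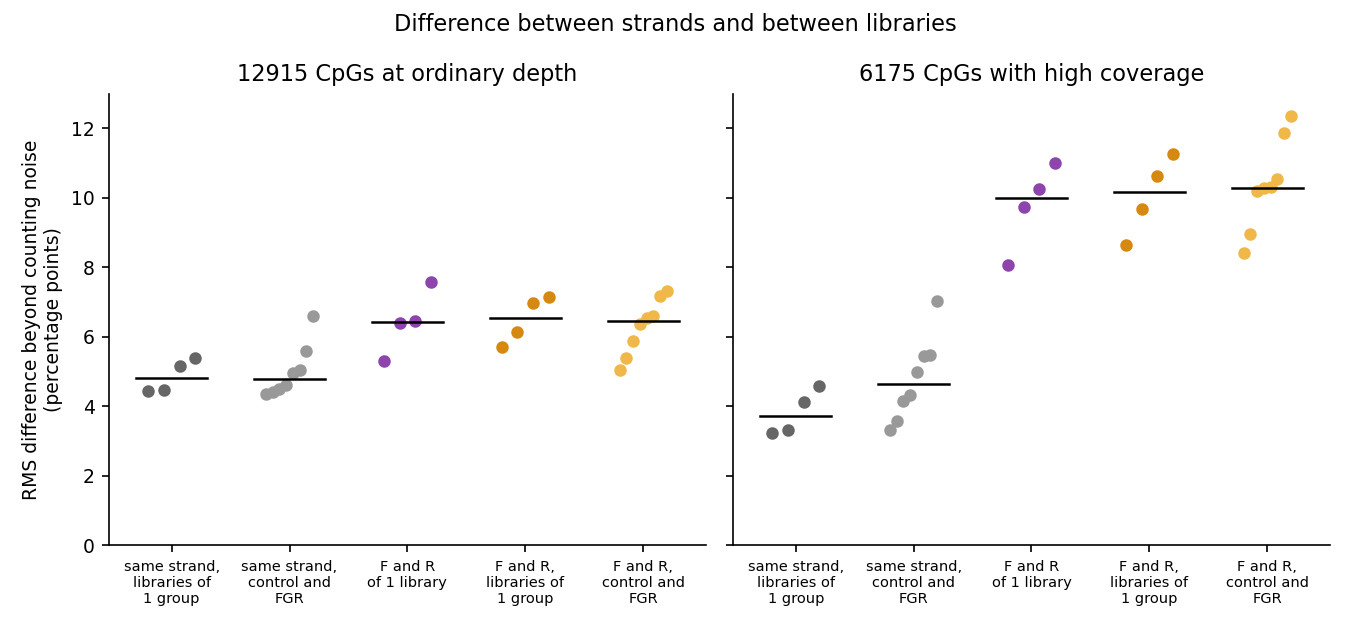
Root mean square (RMS) difference beyond counting noise in percentage points (y axis) for each pair of strand and library measurements, by kind of pair (x axis), at ordinary depth (left) and at high-coverage CpGs (right). Points are pairs and bars are medians: on the right, same-strand pairs lie between 3.23 and 7.03 and F against R pairs between 8.06 and 12.3.

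By class of coverage, the strand difference was largest at 50 to 200 reads per strand. CpGs with a mean of 5 to 10 reads per strand differed by 6.19, 6.20, 7.55 and 5.27 points beyond counting noise. For the 966 CpGs with 50 to 200 reads the values were 16.3, 20.8, 11.3 and 18 points, and their median level was 29.1%. The 633 CpGs with 200 reads or more came back to 6.79, 7.58, 7.10 and 8.0 points at a median level of 83.8%. The class with the largest strand difference was thus the one with the lowest median level, and the part of level and coverage in it was not tested. The 586 CpGs of the cluster around Rn18s-rs5 had a median coverage in this range, 143 reads. Their mean level was 25.7% and their mean F minus R 12.9 points. The part of this 1 cluster in the class was not tested either.

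A CpG was called hemimethylated in a library when one strand read at least 80% and the other at most 20%. This held at 96 CpGs in Control 1 (0.503%, Wilson 95% interval 0.412% to 0.614%), 86 in Control 2 (0.450%, 0.365% to 0.556%), 122 in FGR 1 (0.639%, 0.536% to 0.762%) and 60 in FGR 2 (0.314%, 0.244% to 0.404%). Intervals cover counting error only, since PCR duplicates cannot be told from separate molecules in the deposited tables. The highest share was in the shallowest library and the lowest in the deepest. Over all autosomal CpGs with both strands in a library, the share was 0.918% in Control 1, 0.823% in Control 2, 0.962% in FGR 1 and 0.687% in FGR 2. The CpGs read on both strands in all 4 libraries were below this background in every library. Their share was 0.674%, 0.596%, 0.852% and 0.395% at ordinary depth. At high-coverage CpGs it was 0.146%, 0.146%, 0.194% and 0.146%. Depth was not matched between these CpGs and the background, so the part of depth in the gap was not tested. When 5 reads were drawn from each strand in closed form, counting only 5 of 5 against 0 of 5, the share was 0.113%, 0.144%, 0.100% and 0.111%. At this equal depth FGR 1 was the lowest and no longer the highest, and the group means were 0.129% ± 0.0222 in control and 0.105% ± 0.00758 in FGR (SD, n = 2).

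Few of these CpGs were hemimethylated more than once. Of 336 CpGs that met the definition in any library, 317 did so in 1 library, 14 in 2, 1 in 3 and 4 in all 4, and 4 had the opposite strand high in different libraries. At ordinary depth, the CpGs chosen in Control 1 differed by 69.8 points there and by 7.57 points, in the same direction, in Control 2. For CpGs chosen in FGR 1 the difference was 71.4 points there and 3.41 points in FGR 2. Because a CpG was chosen on the reads of 1 library, only the values of the other libraries are independent of the choice. At high-coverage CpGs the choice carried over more. The 9 chosen in Control 2, where it did so most, differed by 79.9 points there and by 68.6 points in Control 1. Their mean in the FGR libraries was 62.9 points. The 12 chosen in FGR 1 differed by a mean of 39.7 points in the other libraries, where 3 of them had the opposite sign. The 4 CpGs hemimethylated in all 4 libraries are high-coverage CpGs and are among those chosen in each library.

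**Figure D2:**
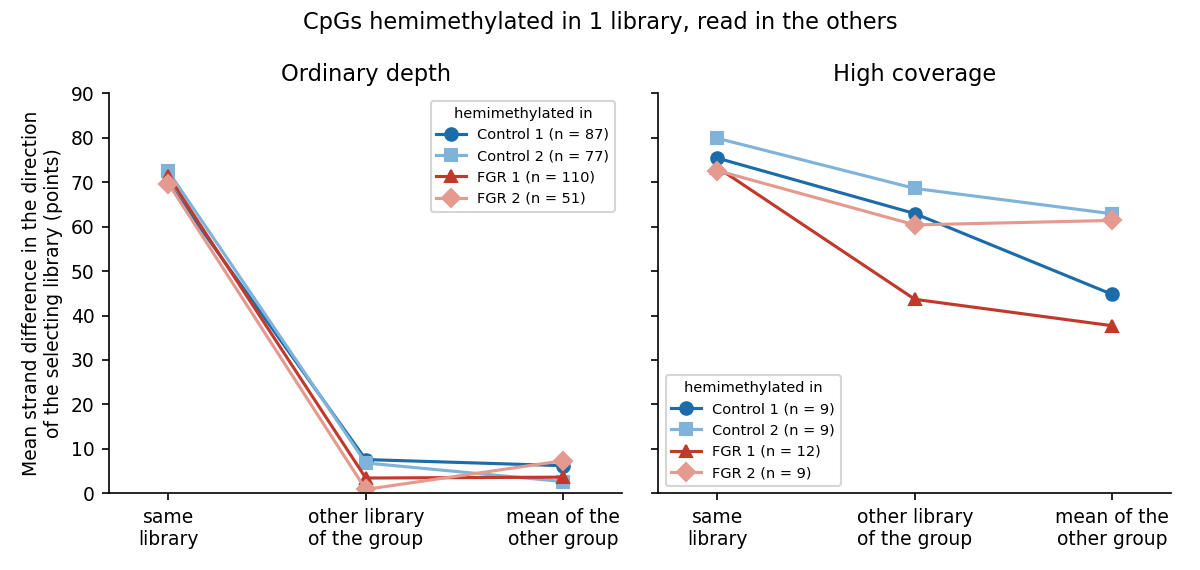
Mean strand difference (y axis, points, signed by the direction in the selecting library) of CpGs hemimethylated in 1 library, in that library, in the other library of its group and as the mean of the other group (x axis). Each line is a selecting library: at ordinary depth (left) the lines drop from about 70 points to 7.57 or less, and at high-coverage CpGs (right) they stay at 37.7 or more.

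To find CpGs whose strands differ in the same way in the libraries, methylated reads were compared between strands within each library by an exact conditional test stratified by library, adjusted by the Benjamini-Hochberg method over 1086996 autosomal CpGs with both strands in at least 2 libraries. Of the 19090 CpGs, 565 (2.96%) were called at an adjusted p under 0.05, against 634 of all tested, a percent called of 0.0583. F was higher at 438 and R at 127, against backgrounds of 0.0429 and 0.0155 percent. The sign was the same in all 4 libraries at 550 of the 565. Most calls were at high depth: 552 were at high-coverage CpGs (8.94% of them) and 13 at ordinary depth (0.101%). The median of the mean strand difference, without its sign, was 20.2 points among the high-coverage calls and 54.6 points among the 13, where few reads let only a large difference pass. The exact test counts reads as independent. A quasi-binomial model, which also takes in the spread between libraries, called 710. It was adjusted over the 19090 CpGs alone, so this count and the 565 do not share a threshold.

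At ordinary depth F was higher at 5 called CpGs. The largest difference was at chr8:20419361 in 2610005L07Rik, where F read 100%, 83.3%, 83.3% and 85.7% in Control 1, Control 2, FGR 1 and FGR 2 and R read 12.5%, 25%, 33.3% and 0%, on 6 to 12 reads per strand. F was high and R low in every library, by 70.4 ± 19.1 points (SD, n = 4; exact stratified test, adjusted p = 0.000173). In Gm15319 on the same chromosome, at chr8:20340337, F read 71.4%, 100%, 100% and 100% and R read 33.3%, 13.3%, 15.8% and 38.5%, a difference of 67.6 ± 22.7 points (SD, n = 4; exact test, adjusted p = 6.06e-06). These were the widest gaps with F high at ordinary depth.

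Atp8a2, a phospholipid flippase gene, had F at 87.5%, 91.7%, 93.3% and 100% and R at 20%, 50%, 57.1% and 44.4% at chr14:59981458. The strands did not overlap, with a difference of 50.2 ± 14.1 points (SD, n = 4; exact test, adjusted p = 0.00424). The CpG at chr14:120067791, 9718 bp from Gm20167, had F at 100%, 100%, 100% and 77.8% against R at 46.7%, 60%, 25% and 37.5%. At chr13:88330293, 179212 bp from Gm19139, R was near 0 (7.69%, 0%, 0% and 0%) while F read 71.4%, 40%, 60% and 16.7%. The last was the weakest of the 5, at 45.1 ± 21.6 points (SD, n = 4; exact test, adjusted p = 0.0179).

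R was higher at 8 called CpGs of ordinary depth. In Zfp992, a zinc-finger protein gene, which overlaps Vmn2r-ps16 at this position, chr4:146459955 had F at 0%, 15.4%, 30.8% and 25% and R at 100%, 83.3%, 100% and 100%. This was the largest difference at ordinary depth, -78.0 ± 15.0 points for F minus R (SD, n = 4; exact test, adjusted p = 9.14e-08). Mdga2, which encodes a neuronal cell surface protein of the immunoglobulin superfamily, had F at 0%, 20%, 14.3% and 11.1% and R at 88.9%, 58.3%, 87.5% and 100% at chr12:66945187. Its difference was -72.3 ± 23.8 points (SD, n = 4; exact test, adjusted p = 1.97e-07), and it was the only CpG that met the hemimethylation thresholds in exactly 3 libraries.

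In the immunoglobulin kappa locus Igk, chr6:70091760 had F at 20%, 42.9%, 18.2% and 63.6% and R at 100%, 83.3%, 100% and 100%. At chr2:7917140, 230059 bp from Gm13254, F read 40%, 0%, 40% and 37.5% and R read 80%, 80%, 85.7% and 100%. Of the other called CpGs, that at chr1:88280551, 2907 bp from Hjurp, is given because of the unmethylated promoter shown above: F read 50%, 50%, 25% and 50% and R 100%, 92.9%, 100% and 100%. Zfp978, another zinc-finger protein gene, had R at 90%, 100%, 100% and 92.9% at chr4:147282228. F there read 14.3% and 16.7% in the controls but 55.6% and 77.8% in FGR, so only the F strand separated the groups (strand by group, quasi-binomial model, adjusted p = 0.963). The CpGs in 2610005L07Rik and Igk and those near Gm20167 and Gm19139 lost the call without Control 1, with adjusted p from 0.0526 to 0.681. Those near Gm13254 and in Zfp978 lost it without Control 2 (0.0516 and 0.0959). Those near Gm20167 and Gm19139 and in Igk lost it without FGR 1 (0.252, 0.722 and 1). Atp8a2 and the CpG near Gm13254 lost it without FGR 2 (0.227 and 0.376). Gm15319, Zfp992 and Mdga2 kept it without any 1 library.

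**Figure D3:**
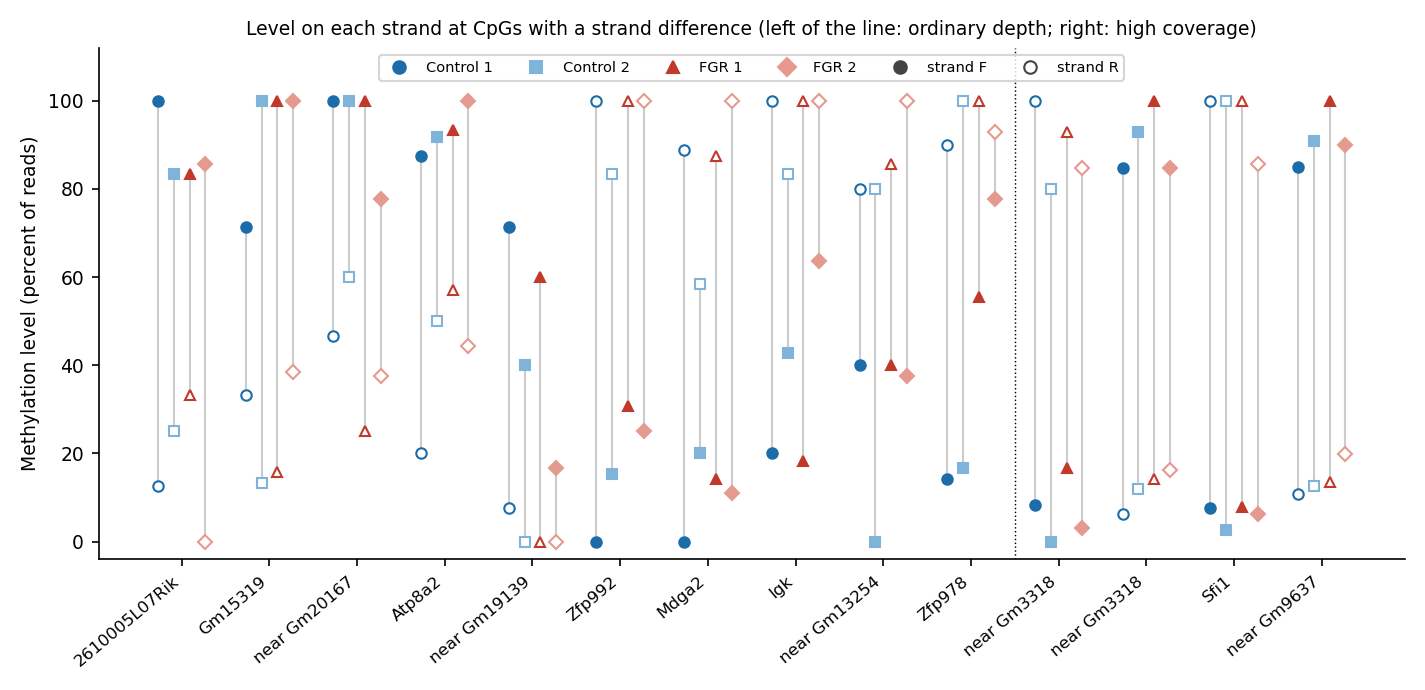
Methylation level in percent of reads (y axis) on strand F (filled) and R (open) in each library at the 10 named CpGs of ordinary depth, left of the dotted line, and at the 4 high-coverage CpGs hemimethylated in every library, right of it. Labels give the gene or the nearest gene, and a line joins the strands of 1 library: F and R are apart in the same direction in every library.

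The 4 CpGs that were hemimethylated in every library were all high-coverage CpGs, described here without a test because the definition chose them. Neither they nor the called CpGs of ordinary depth were checked for repeats or for sequence variants at the CpG. Whether the strand levels reflect methylation alone was therefore not tested. At chr11:3188560 in Sfi1, which encodes a centrin-binding protein of the centrosome, F read 7.61%, 2.56%, 7.89% and 6.25% on 76 to 92 reads and R read 100%, 100%, 100% and 85.7% on 5 to 8 reads. At chr10:3112573, 5232 bp from Gm3318, F read 8.33%, 0%, 16.7% and 3.03% and R 100%, 80%, 92.9% and 84.6%. A second CpG near Gm3318, chr10:3117076, was the other way round, with F at 84.6%, 92.9%, 100% and 84.6% and R at 6.25%, 12%, 14.3% and 16.1%. At chr14:19416092, 11000 bp from Gm9637, F read 85%, 90.9%, 100% and 90% on 10 to 20 reads and R 10.8%, 12.5%, 13.5% and 19.8% on 74 to 102 reads. The spread over libraries was small beside the gap, with an SD of 6.60 to 7.66 points for mean differences, F minus R, of 77.3, 78.4, -82.4 and -90.3 points. The low strand was also the deeper one in every library at 3 of these CpGs, and in all libraries but FGR 1 at chr10:3112573.

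The 552 high-coverage calls lay in 43 clusters. At the called CpGs the deeper strand had a median of 2.67 times the reads of the shallower one, against 1.37 times at the 5623 high-coverage CpGs not called. Uneven and deep reads thus went with the call, and their part in it was not tested. Some very deep clusters held many calls although the mean levels of their strands were close. At chr2:98666262-98667326, with a median of 23568.5 to 28749 reads on F, 20 of 30 CpGs were called, and the mean level over the 30 was 85.6% to 86% on F and 83.6% to 83.8% on R. At chr9:3019839-3038257, 51 of 241 CpGs were called, with F at 77.5% to 77.8% and R at 79.2% to 79.9%, on a median of 741 to 857 reads on F and 56 to 99 on R. The called difference, with its sign, had a median of 1.37 points in the first cluster. F was higher at 19 called CpGs there and R at 1. In the second cluster it was -3.26 points, with F higher at 19 and R at 32, so opposite signs partly cancelled.

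At chr10:3111403-3115023 the strands differed widely over the whole cluster. Its 45 CpGs had a mean of 83%, 81.4%, 83.2% and 83.3% on F and 62.4%, 59.5%, 59.4% and 62% on R, and 20 were called, 19 with F higher. The neighbouring 16 CpGs at chr10:3116099-3117136 had F at 81.7% to 84.6% and R at 58.5% to 62.6%, and all 8 called had F higher. Here coverage was modest, with medians of 20 to 50.5 reads on F and 26 to 58.5 on R. Where Cmss1 and Filip1l overlap, at chr16:57391167-57391675, 19 of 53 CpGs were called, all with F higher. F read 27.7%, 48.6%, 29.6% and 35.4% there and R read 24.9%, 27.5%, 16.6% and 18.8%, so the gap was narrow in Control 1.

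More than 1 in 2 called CpGs lay around Rn18s-rs5. The cluster at chr17:39843001-39848737 had 302 calls among 586 CpGs (51.5%), 288 of them with F higher. Its mean level was 31.5%, 39.8%, 24.6% and 32.8% on F and 18.5%, 22.8%, 17% and 18.7% on R. The difference was thus smallest in FGR 1, at 7.67 points, and largest in Control 2, at 17 points. In steps of 500 bp the difference was not even. All 61 CpGs of chr17:39844001-39844500 were called, with F at 44.6%, 56.9%, 26.3% and 55.6% and R at 14.7%, 16.5%, 11.6% and 19.1%. All 65 CpGs of chr17:39845501-39846000 were called as well, with F at 47.3%, 59%, 34.7% and 57.9% and R at 13.2% to 15%. In the 3 steps in Rn18s-rs5 the gap was smaller or of the other sign: chr17:39847001-39847500 had 1 call among 47 CpGs, with F at 15.3% to 21.1% and R at 15.7% to 25.8%. Of the steps in AY036118, chr17:39848001-39848500 had 1 call among 50 CpGs, with F at 19.9% to 28.9% and R at 17.6% to 28.3%, and the last had 33 of 34 CpGs called, with F at 26.8% to 49.7% and R at 13.3% to 16.7%.

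Reads were uneven in the same steps. At chr17:39845501-39846000 the median was 46 to 65 reads on F and 180 to 268 on R, while at chr17:39847001-39847500 it was 190 to 216 on F and 250 to 313 on R. The strand with fewer reads was the one with the higher level in the first step, and whether depth and level are linked there was not tested. FGR 1 had more F reads than the other libraries in several of the outer steps and the lowest F level, so the order of the libraries was not that of the groups.

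**Figure D4:**
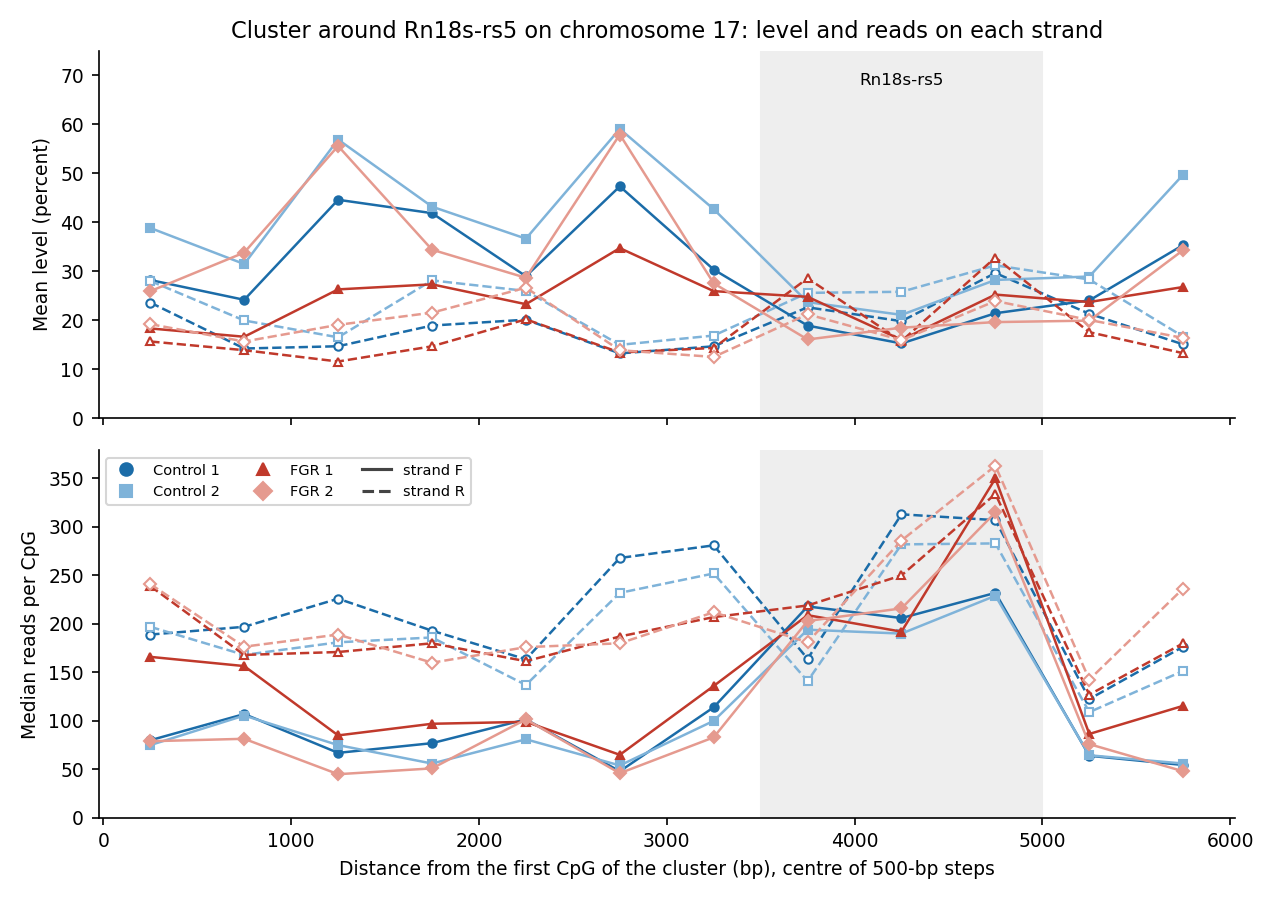
Mean methylation level in percent (top) and median reads per CpG (bottom) on strand F (solid, filled) and R (dashed, open) in each library, against distance in bp from the first CpG of the 586-CpG cluster on chromosome 17, in steps of 500 bp. Grey marks steps whose middle lies in Rn18s-rs5: in most steps outside it F lies above R, with fewer reads, and inside it the strands are closer.

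The comparison of FGR with control asked whether strand agreement or level depends on growth restriction. No library-wide measure passed a test, and with 2 libraries against 2 the exact permutation test over 6 assignments cannot go below p = 0.33. The level of the CpGs, all reads summed, was 77.3% and 78% in control and 76.5% and 77.1% in FGR. The means were 77.7% ± 0.484 and 76.8% ± 0.445 (SD, n = 2), a difference of -0.902 points (two-sided exact permutation test, p = 0.33), and both FGR libraries were below both controls. The difference was -0.449 points without high-coverage CpGs, -0.468 without the chromosome 17 and chromosome 3 clusters, -0.560 without Control 2 and -0.588 without FGR 1. F minus R, with the reads of each strand summed, was 3.45 ± 0.266 points in control and 3.24 ± 0.227 in FGR (SD, n = 2; exact permutation test, p = 0.667). The strand difference beyond counting noise was 7.92 ± 0.358 points in control and 7.51 ± 0.315 in FGR (SD, n = 2; exact permutation test, p = 0.667). The hemimethylated share was 0.477% ± 0.0370 in control and 0.477% ± 0.230 in FGR (SD, n = 2; exact permutation test, p = 1), where the FGR libraries lay on either side of both controls. Without high-coverage CpGs, F minus R was higher in FGR by 0.166 points and the difference beyond counting noise by 0.0223 points, so these 2 directions rest on the high-coverage CpGs. Over all CpGs, the group difference in F minus R was -0.0175 points without Control 1, -0.0449 without FGR 1, -0.366 without FGR 2 and -0.393 without Control 2. That in the difference beyond counting noise was -0.157 without Control 2, -0.188 without FGR 2, -0.633 without FGR 1 and -0.664 without Control 1.

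A quasi-binomial model with a term for strand by group, adjusted over the 19090 CpGs, called 5 (0.0262 percent), and 958 had an unadjusted p under 0.05. All 5 were high-coverage CpGs, and none was at ordinary depth, where 596 had an unadjusted p under 0.05. limma on log2 ratios called 0, with 1095 at an unadjusted p under 0.05. At chr17:39847522 in Rn18s-rs5, F read 16%, 17%, 13.7% and 13.5% in Control 1, Control 2, FGR 1 and FGR 2, and R read 19.7%, 28.5%, 49% and 47.4%. R alone lay higher in FGR, and F minus R was -7.64 ± 5.48 points in control and -34.6 ± 0.997 in FGR (SD, n = 2; quasi-binomial model, adjusted p = 0.00346). At chr17:39847564 both strands were higher in FGR, R more so: F read 16.6%, 23.6%, 34.7% and 31.1% and R 21.2%, 24.8%, 65.6% and 61.3%. The CpG at chr17:39847593 had F at 17.7%, 26.6%, 34.8% and 33% and R at 25.4%, 23%, 64.1% and 61.5%. In these 3 CpGs R was the deeper strand in FGR, with 529 to 935 reads against 278 to 330 in control.

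The remaining 2 of the 5 lay in a cluster of 36 CpGs at chr3:5860340-5860765, 109072 and 109274 bp from the nearest gene, Gm8797. At chr3:5860367 F read 22.4%, 18.4%, 55.5% and 51.5% and R read 24.7%, 39.7%, 15.8% and 10.4%. The strands moved in opposite directions there, so F minus R was -11.8 ± 13.4 points in control and 40.4 ± 0.983 in FGR (SD, n = 2; quasi-binomial model, adjusted p = 0.000204). At chr3:5860569 F read 29.9%, 23.6%, 35.3% and 34.9% and R 21.2%, 29.3%, 9.5% and 8.65%. The third CpG named with F minus R higher in FGR, chr12:53724623 in Npas3, a bHLH-PAS transcription factor gene, was not called (quasi-binomial model, adjusted p = 0.542). It read 0%, 0%, 100% and 80% on F and 50%, 38.5%, 55.6% and 37.5% on R, on 5 to 13 reads. Leaving out Control 2 ended the calls at chr3:5860569, chr17:39847564 and chr17:39847593, with adjusted p of 0.108, 0.141 and 1. Leaving out Control 1 ended that at chr17:39847522, with 0.0687.

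The level test, on reads of both strands, covered 30562 autosomal CpGs with at least 10 reads in every library. It called 20 of these (0.0654 percent) at an adjusted p under 0.05 and 10 points, and 15 of the 19090, all higher in FGR (background 0.0622 percent) and none lower (background 0.00327 percent). All 15 were high-coverage CpGs: 11 in 1 stretch of chromosome 3, chr3:5860365-5860561, and 4 in Rn18s-rs5. The prior of both quasi-binomial tests was changed after a first form had failed on simulated data. limma on log2 ratios called 0, with 982 at an unadjusted p under 0.05, against 1090 by the quasi-binomial model.

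The chromosome 3 stretch changed on both strands. At chr3:5860434 F read 18.6% and 11.9% in control and 84.4% and 82.1% in FGR, and R read 19.2% and 28.7% in control and 86.7% and 84.1% in FGR. The level was 65.2 points higher in FGR (quasi-binomial model, adjusted p = 1.08e-18), while limma on log2 ratios gave an adjusted p of 0.89. F and R gave 68 and 61.4 points. This CpG was chosen on the sum of their reads in the same libraries, so the strands are not independent support for the difference. Over the 11 CpGs the difference was 13.8 to 68 points on F and 39.8 to 61.4 points on R. Their mean level was 22.1% and 22.6% in control and 79.3% and 77.1% in FGR. At the other 25 CpGs of the 36 in this cluster it was 27.2% and 31.7% in control and 26.6% and 25.3% in FGR, with both FGR libraries just below both controls. Between the first and the last of the 11, the CpG at chr3:5860367 was the only one not called, the one whose strands moved apart.

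Coverage moved with the level at the 11 CpGs. Their median was 405 and 384 reads in control and 1950 and 2143 in FGR, while at the other 25 it was 186 and 199 in control and 273 and 249 in FGR. Unmethylated reads were alike, with medians of 310 and 299 in control and 322 and 382 in FGR. Methylated reads were not: the medians were 89 and 87 in control and 1582 and 1703 in FGR. The higher level thus came with more methylated reads and about as many unmethylated ones. The part of the added reads in the call was not tested.

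The 4 called CpGs in Rn18s-rs5 showed the same in part. Their mean level was 18.6% and 23% in control and 44.3% and 40% in FGR, with medians of 117.5 and 145 methylated reads in control and 542.5 and 460 in FGR. Unmethylated reads were 521 and 457 in control and 626 and 643.5 in FGR. R carried the difference, at 22.1 to 40.4 points, while F gave -2.95 to 12.8 points.

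**Figure D5:**
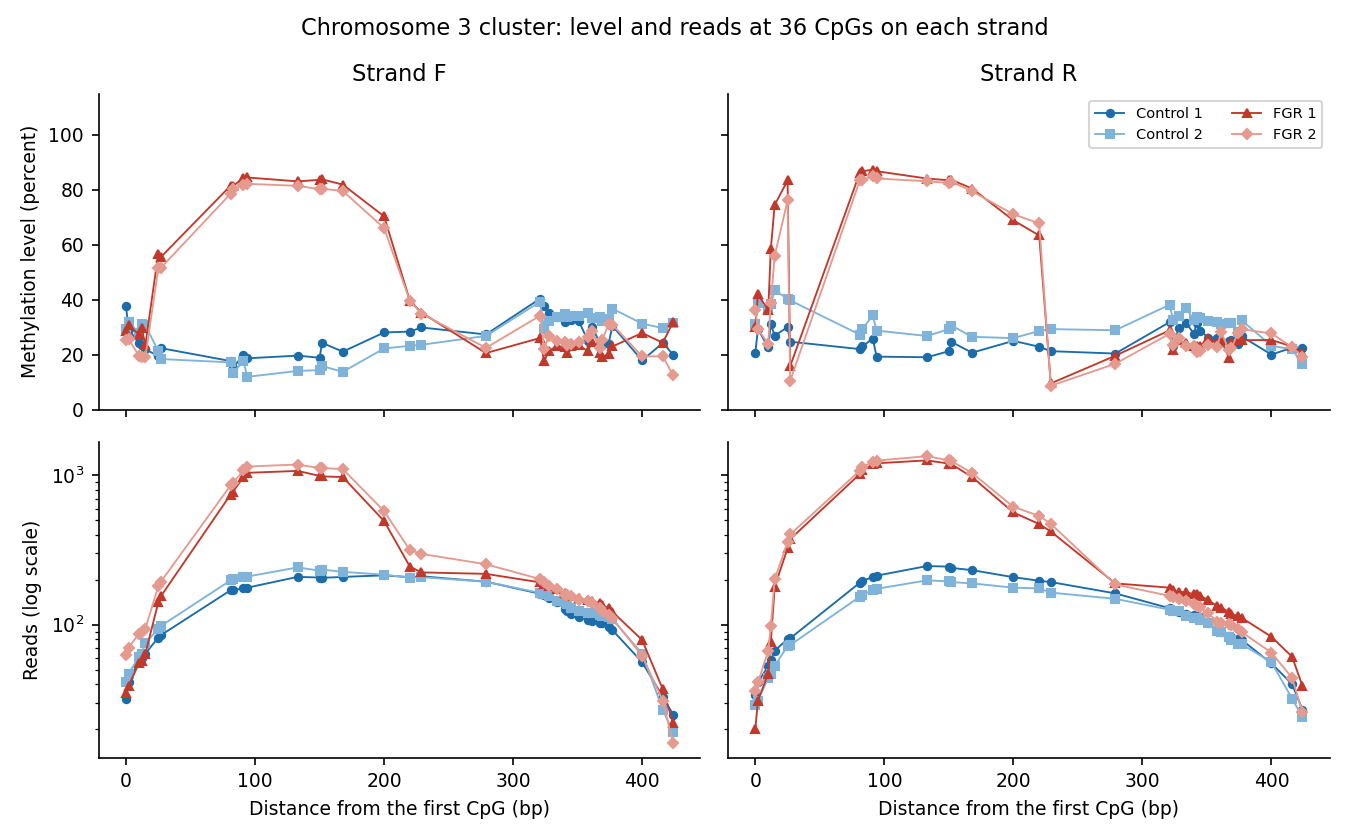
Methylation level in percent (top) and reads on a log scale (bottom) in each library on strand F (left) and strand R (right), against distance in bp from the first of 36 CpGs in the chromosome 3 cluster. In 8 neighbouring CpGs both FGR libraries read 78.5% or more on each strand, with 743 reads or more, and at the far end they lie with the control libraries.

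No CpG of the 19090 was called lower in FGR, and the 4 with the smallest p are given as values. The first CpG of the chromosome 17 cluster, chr17:39843001, had levels of 64.4% in control and 24.9% in FGR (quasi-binomial model, adjusted p = 0.0619) and both strands low in FGR: F read 66.7%, 60%, 12.5% and 42.9% and R 61.1%, 68.4%, 28.6% and 28.6%. It passed without FGR 2 (adjusted p = 0.00612) and when only CpGs with 20 reads in every library were tested (adjusted p = 0.0299), and did not without any other library (0.235 to 0.916). In Postn, which encodes the matrix protein periostin, chr3:54380487 read 100% on both strands of both controls. In FGR it read 83.3% and 71.4% on F and 66.7% and 50% on R, on 5 to 12 reads (quasi-binomial model, adjusted p = 0.194). In Gm40504, chr8:71817122 was also at 100% in the controls, with F at 100% and 77.8% and R at 71.4% and 69.2% in FGR (quasi-binomial model, adjusted p = 0.223). At chr2:98662685, 39913 bp from Gm33780, control libraries averaged 80.9% and FGR libraries 79.5%, on 21247 reads or more, a difference of -1.32 points (quasi-binomial model, adjusted p = 0.129).

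The FGR minus control difference was also taken on each strand alone. Averaged over the 12915 CpGs of ordinary depth it was -0.230 points on F and -0.547 points on R. Across these CpGs the differences on F and on R had a Pearson correlation of -0.00978, against 0.0835 across the 6175 high-coverage CpGs. These are descriptions over CpGs that share libraries and depth, and neither is large.

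Genes of the lists chosen for this tissue held few CpGs read on both strands in all libraries. The 10 lists name 138 genes, of which 135 were found on the autosomes and 13 held any such CpG. All 21 of their CpGs were at ordinary depth. None was called for a strand or a level difference, where the 12915 CpGs of that depth had 13 strand calls (0.101%) and 0 level calls. The smallest unadjusted p for level was 0.0749, in Mrc1 (quasi-binomial model). Among genes that write or erase methylation, Tet2, a dioxygenase that oxidises methylcytosine, had 1 CpG, with F at 100%, 100%, 75% and 100% and R at 100%, 87.5%, 80% and 100%. Of the homeostatic microglia genes only P2ry12, a purinergic receptor, had one, at 100% on F in all libraries and 100%, 100%, 100% and 80% on R. Both strands were therefore high in these genes in every library. In Runx1, a myeloid transcription factor gene, the single CpG was low on both strands, with F at 0%, 16.7%, 20% and 12.5% and R at 14.3%, 0%, 0% and 0%. Smad3, a signal transducer of TGF-beta on the same list, had 2 CpGs with means of 90%, 60%, 100% and 100% on F and 100%, 100%, 100% and 81.2% on R, and 1 of them met the hemimethylation thresholds in at least 1 library.

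Imprinted genes, which carry methylation on 1 parental copy at their control regions, had 6 CpGs in 5 genes. The pair in Snrpn read 54.3%, 44.2%, 45% and 44.3% on F and 60%, 43.3%, 20.8% and 45.8% on R, so both strands were intermediate. Those in Mest, Inpp5f and Trappc9 were high, with means of 95%, 93.1% and 100% on F and 96.9%, 90% and 100% on R. Grb10 read 75%, 100%, 71.4% and 88.9% on F and 33.3%, 100%, 83.3% and 80% on R. Of other cell types, the neuronal genes Syt1 and Map2 had 5 and 2 CpGs, and the border macrophage genes Mrc1 and F13a1 had 2 and 1. Syt1, a calcium sensor of synaptic vesicles, averaged 70.8% on F and 71% on R. No CpG of this kind lay in the astrocyte, oligodendrocyte, endothelial or lymphocyte lists, so the purity of the cells cannot be judged from them.

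Strands were also sorted by transcription. For 4624 CpGs of ordinary depth in genes with a known strand, the coding strand exceeded the template strand by 0.736 and 0.833 points in control and by 0.0145 and 0.140 points in FGR. The mean was 0.431 ± 0.413 points (SD, n = 4), positive in all 4 libraries with a mean about as large as its spread.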

How the data were processed

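Whole-genome bisulfite tables of 2 control and 2 FGR libraries were used. The submitters' processing notes name build mm10, methylKit 1.28.0, Trim Galore 0.6.5 and Bismark, the last without a version. The authors deposited 1 table per library: per the file headers, read counts (coverage) per cytosine and strand and the percent of those reads that read C or T. No cytosine listed had under 5 reads, and coverage times percent gave whole reads in every table. No source used here states filters on mapping or duplicates, so duplicates and reads that match several places may be among the counts. Library totals over listed cytosines ran from 49563150 to 91762720 reads. They leave out cytosines under 5 reads.

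Strands were paired by position on chromosomes 1 to 19. For each library the level, F minus R, the root mean square strand difference beyond binomial noise and the hemimethylated share were computed, and groups were compared by exact permutation tests. Single CpGs were tested for strand by an exact conditional test stratified by library. Strand by group and level by group were tested by quasi-binomial models with dispersion moderated by limma 3.58.1 (squeezeVar) and kept at 1 or above. The prior was fitted on CpGs with a mean level of 20% to 80%, separately by depth class in both tests, and with a trend on coverage for level. This choice was made after the prior over all CpGs had failed to recover the changes put into simulated data. The calls of both tests therefore rest on it, as do the 710 strand calls of the quasi-binomial model. All adjusted p-values are Benjamini-Hochberg values. Genes within 1500 bp came from RefSeq tables (GRCm38.p6). Python 3.11.15, numpy 2.4.6, scipy 1.17.1, pandas 2.3.3 and R 4.3.3 were used.

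The CpGs, lists and tests were chosen with earlier results of these data known. Named were the 5 called CpGs of ordinary depth with the largest difference per direction, same sign in all libraries and 1000 bp apart. For strand by group, up to 3 called CpGs per direction were named, and the 3 with the smallest p where fewer were called. For level, up to 5 called per direction were named, or the 4 with the smallest p. For each gene list the 3 genes with most CpGs were eligible, and 6 for imprinted genes. CpGs hemimethylated in at least 3 libraries and clusters with the most calls were singled out after their values were seen. Alternatives were coverage minimums, depth, thresholds, other models, each strand alone, leaving out each library and a replicate block.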

Additional observations from a re-analysis of the deposited data

How the results depend on the processing

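Without CpGs of high coverage, the FGR minus control difference turned to 0.166 points for F minus R and to 0.0223 points for the strand difference beyond counting noise. The cause was not tested. The level difference stayed negative in every alternative run, from -1.24 to -0.389 points. The 565 CpGs with a strand difference became 13 without high-coverage CpGs and 189 with 25 points and the same sign required. They became 256 without the chromosome 17 and chromosome 3 clusters, an alternative chosen after seeing the data. Each of these leaves out CpGs by construction. The quasi-binomial count that follows was adjusted over the 19090 CpGs alone. Other counts were 710 by the quasi-binomial model, 510 adjusted over 5233698 CpGs, 470 to 512 without 1 library, and 805 of 3905 at 10 reads per strand, where 11.7% of the 7413 CpGs tested were called. The 5 calls of strand by group became 0 by limma, 10 at 10 reads per strand and 4 to 7 without 1 library. The 15 level calls became 0 by limma, 9 on F alone, 21 on R alone, 18 at 20 reads and 13 to 22 without 1 library. Among 25 named CpGs, 175 alternative values gave 139 on the same side of an adjusted p of 0.05, 31 that no longer passed it, 5 that newly passed it and 0 of the opposite sign. Of the 5, 3 were chr17:39843001 and 2 were chr2:98662685, whose difference of -1.32 points is under the 10 points a call needs.

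Control and FGR libraries share replicate numbers, which the labels do not tie to a litter or day. Replicate 1 minus 2 in control correlated with the same in FGR at 0.00167 for level and 0.0177 for F minus R over 19090 CpGs. At this depth even the difference between the control libraries on F correlated with that on R at only 0.0175. The check therefore cannot tell whether replicates of the same number share a litter or day. With the replicate block, level calls numbered 24 and strand by group calls 0, with 321 at an unadjusted p under 0.05. The adjusted p of the 5 strand by group CpGs was then 0.247 to 0.534, and that of the level at chr17:39843001 was 0.00724. The blocked differences were -0.902 points for level (exact sign-flip permutation test, p = 0.5), -0.205 for F minus R, -0.410 for the difference beyond counting noise and 0 for the hemimethylated share (p = 1 for each).

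With 2 libraries a group, no library-wide difference can pass an exact test. At 5 to 10 reads per strand only large strand differences pass.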
